A study of Homo sapiens with 6 samples.

Results

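The 10 genes described here make and shape fatty acids or encode the transcription factor that drives that programme: SREBF1, ACLY, ACSS2, ACACA, FASN, SCD, FADS1, FADS2, ELOVL6 and LPIN1. They were taken by gene symbol from a list drawn up with earlier results of these data known, and all 10 were found among the 19940 gene rows of each count table. In U2OS cells, 8 of them were lowest in both libraries of cells returned from hypertonic to isotonic medium, below all 4 other libraries. These were FASN, ACACA, ACLY, SCD, FADS1, FADS2, ELOVL6 and LPIN1. Of all 18208 genes tested, 21.8% had both these libraries lowest, with each count taken relative to its library's total. With TMM scaling, which sets libraries level on the bulk of genes, the fall was largest for ACACA, at 3.09-fold against isotonic. SREBF1 itself and ACSS2 were not lowest in the returned cells. Hypertonic and isotonic libraries overlapped for every member, where 3.05% of genes tested lay lower and 2.59% higher in both hypertonic libraries.

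Fatty acid synthesis starts from acetyl-CoA in the cytosol, which ATP citrate lyase (ACLY) cuts from citrate and acetyl-CoA synthetase (ACSS2) makes from acetate. Acetyl-CoA carboxylase (ACACA) turns it into malonyl-CoA, fatty acid synthase (FASN) builds palmitate from that, and elongases and desaturases lengthen and unsaturate the chain before it enters membrane and storage lipids. SREBP1, the protein of SREBF1, is held in the endoplasmic reticulum by SCAP and INSIG proteins and, once cut in the Golgi, enters the nucleus and turns on these enzymes, usually together with the CCAAT-binding factor NF-Y. SREBP1 activity is set largely by that cutting, so the RNA level of SREBF1 is only 1 part of it.

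U2OS is a human osteosarcoma cell line, here with a stable GFP-DCP1A transgene under G418 selection at 100 μg/mL, DCP1A being an mRNA decapping protein of P-bodies. All 3 groups carry the transgene, and the labels list 10% serum for all of them. Isotonic cells had 150 mM sodium in the medium and hypertonic cells 300 mM sodium, with a stated treatment of 4 h, and rescue cells went from hypertonic into isotonic medium for a further 4 h. Each group had 2 libraries of total RNA depleted of ribosomal RNA. The series was made to assess transcriptional changes under these conditions. Rescue cells were harvested later and after a further medium change, with no isotonic group kept as long, so rescue and later harvest cannot be told apart. Nothing in the labels ties the 2 libraries of a group to separate cultures, so p-values here measure a spread that may be technical. That spread also takes in the large differences between the 2 isotonic and between the 2 hypertonic libraries, described next.

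Total counts per library lay between 90196278 and 105991428. Over 17388 genes with at least 100 summed counts, the library labelled isotonic 1 resembled the one labelled hypertonic 2 (SD of the log2 ratio 0.183), and isotonic 2 resembled hypertonic 1 (0.195), while isotonic 1 and 2 differed with an SD of 0.962 and hypertonic 1 and 2 with 0.952. The rescue pair had an SD of 0.166. Levels are given in CPM, a gene's count divided by its library's total count and scaled alike in all libraries. NFAT5, the transcription factor of the osmotic response, was at 157 and 457 CPM in isotonic 1 and 2, 429.6 and 164 in hypertonic 1 and 2, and 118 and 132 in rescue 1 and 2. SLC38A2, an amino acid carrier induced by hypertonic medium, followed the same split, at 341 and 2727 CPM in isotonic, 2697 and 344 in hypertonic, and 549.9 and 537 in rescue. Both genes were high in isotonic 2 and hypertonic 1. Libraries are named below as labelled and were not regrouped, so every direction between isotonic and hypertonic refers to the labels. DCP1A was at 927, 786, 764 and 916 CPM in the isotonic and hypertonic libraries and at 527 and 505 in rescue. A list of 9 bone-lineage genes, the general mesenchymal gene VIM included, summed to 3346 to 3597 CPM, but COL1A2 was at 0.0773 to 0.174 CPM, SP7 at 0.184 to 0.533 CPM and BGLAP at 0.513 to 1.09 CPM, so these defining bone genes were near 0. The 6 adipocyte markers summed to 7.71 to 11.6 CPM, most of it LPL, with ADIPOQ at 0 to 0.0443 CPM, 6 hepatocyte markers to 0.232 to 2.23 CPM with ALB at 0 to 0.391 CPM, and 5 leukocyte markers to 0.475 to 3.60 CPM. Of the other marker lists, 4 epithelial markers summed to 5.38 to 7.60 CPM in isotonic and hypertonic and to 17.4 and 16.2 CPM in rescue, with none at 0, and 3 endothelial markers to 8.05, 28.8, 28.0 and 7.81 CPM and to 30.9 and 29.5 CPM. The epithelial and hepatocyte sums were highest in rescue, and the leukocyte and endothelial sums followed the crossed split and were high in rescue. VWF, an endothelial marker, was at 1.59 to 1.90 CPM in isotonic and hypertonic and at 11.4 CPM in both rescue libraries, and the adipocyte markers LEP, PLIN1, FABP4 and CIDEC were highest in rescue too, at 1.46 CPM or less. Their part in the results was not tested.

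The promoter windows of the genes show what these members share in sequence. Of the 10 members, 9 matched RefSeq's promoter table (GRCh38.p14), with 16 windows in all, each from 250 bases before to 50 bases after an annotated start, and FASN did not match. The 3 windows below, of SREBF1 and of 2 enzymes, were picked with the results known and stand as examples with and without the motif. Capitals mark the NF-Y motif CCAAT on either strand. Positions are counted from the start site, with negative values before it.
SCD, chr10:100346983-100347282, plus strand: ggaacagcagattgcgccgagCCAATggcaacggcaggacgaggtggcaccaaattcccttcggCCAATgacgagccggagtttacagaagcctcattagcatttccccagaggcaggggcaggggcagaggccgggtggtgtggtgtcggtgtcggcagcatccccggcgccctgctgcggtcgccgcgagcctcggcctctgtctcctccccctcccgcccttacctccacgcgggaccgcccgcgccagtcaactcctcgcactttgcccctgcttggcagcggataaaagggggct
ACLY, chr17:41918973-41919272, minus strand: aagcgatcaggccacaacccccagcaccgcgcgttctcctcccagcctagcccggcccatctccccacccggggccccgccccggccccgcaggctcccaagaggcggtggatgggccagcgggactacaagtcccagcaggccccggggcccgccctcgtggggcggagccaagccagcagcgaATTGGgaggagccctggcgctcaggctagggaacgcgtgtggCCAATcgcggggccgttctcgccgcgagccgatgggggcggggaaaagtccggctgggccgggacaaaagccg
SREBF1, chr17:17836937-17837236, minus strand: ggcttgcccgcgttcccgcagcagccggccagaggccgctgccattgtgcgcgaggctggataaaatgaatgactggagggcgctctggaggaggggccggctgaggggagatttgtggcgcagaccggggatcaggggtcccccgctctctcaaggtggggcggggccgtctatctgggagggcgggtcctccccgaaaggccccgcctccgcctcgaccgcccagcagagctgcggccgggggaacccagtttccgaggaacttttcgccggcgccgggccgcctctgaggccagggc
The SCD window held CCAAT at -229 and -186. The ACLY window held it at -65, on the opposite strand, and at -23, and the SREBF1 window held none. Among all members, CCAAT was in 7 of the 16 windows, from ACACA, ACLY, SCD, FADS2 and ACSS2, against 34.6% of all 35116 windows in the table. The motif did not sort the members by level: FADS1, ELOVL6 and LPIN1, also lowest in rescue, had none in their windows, and ACSS2, which was not lowest there, had it. The GC box GGGCGG, the motif of SP1, was in 13 of the 16 windows, with at least 1 window for each of the 9 genes, against 45% of all windows. The core of the sterol regulatory element, spelled TCACNCCAC, was in 0 of the 16 and in 1.13% of all windows, and the E-box CACGTG was in 0 of the 16 and in 7.26%. Both strands were searched, and matches of different motifs were counted separately and may overlap. Windows of 1 gene may overlap too: the 2 ACLY windows share most of their bases, so the same sites count in both. A match is a string of letters and not a measured binding site, and these windows are short.

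SREBF1 (chr17:17810399-17837002, minus strand, GRCh38) encodes both SREBP1 isoforms, which gene-level counts do not separate. Its level was 62.2 and 75.1 CPM in isotonic 1 and 2, 82.1 and 59.9 CPM in hypertonic 1 and 2, and 78.0 and 73.6 CPM in rescue 1 and 2. All 6 values lay within 1.37-fold of each other, and the 3 groups overlapped. That was the narrowest range of the 10 members in CPM by library total, a ranking that depends on the scaling. With TMM scaling, which sets libraries level on the bulk of genes, the log2 fold change of rescue against isotonic was -0.16 (SE 0.263, 95% interval -0.86 to 0.54, edgeR quasi-likelihood adjusted p = 0.698). Against hypertonic it was -0.22 (SE 0.264, edgeR adjusted p = 0.589). Fold changes below are TMM-scaled unless stated, so they differ from ratios of the CPM printed beside them. Upper-quartile scaling put rescue against isotonic at 0.054 and library totals put it at 0.14, but these scalings shifted all genes, and relative to the median of all genes SREBF1 stood at -0.14, -0.14 and -0.13 with TMM, upper quartiles and library totals. Subtracting the median takes out such a shift, so these values are nearly alike by construction. SREBF1 also hosts the miRNA genes MIR33B and MIR6777, and 1055 bases of its span overlap RAI1 on the opposite strand.

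By the likeness of levels over the 6 libraries, the 5 genes closest to SREBF1 among 13116 genes that averaged 5 CPM or more were C7orf26, ACOT8, CFB, CDK2AP2 and S100A11. The measure was the root mean square difference of log2(CPM + 0.1) after centring each gene, and it ran from 0.0256 for C7orf26 to 0.0351 for S100A11. ACOT8, a peroxisomal acyl-CoA thioesterase, was at 18.2 and 22.2 CPM in isotonic, 23.6 and 18.0 CPM in hypertonic and 23.3 and 22.6 CPM in rescue. No other member was among these 5.

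The acetyl-CoA suppliers parted ways. ACLY (chr17:41866908-41930542, minus strand) was at 307 and 249 CPM in isotonic 1 and 2, 257 and 304 CPM in hypertonic 1 and 2, and 130.4 and 125 CPM in rescue 1 and 2. Both rescue values lay below all others, and by log2 fold change only ACACA fell farther. ACLY fell by 1.41 on the log2 scale against isotonic (2.66-fold, SE 0.108, adjusted p = 0.00835, edgeR) and by 1.43 against hypertonic (adjusted p = 0.00834). ACSS2 (chr20:34872146-34927962, plus strand), which uses acetate, was at 18.5 and 11.5 CPM in isotonic, 12.9 and 18.4 CPM in hypertonic, and 18.3 and 18.0 CPM in rescue. Rescue values lay at the level of isotonic 1 and hypertonic 2 and above the other 2 libraries. Its log2 fold change of rescue was -0.0021 against isotonic (95% interval -0.67 to 0.67, adjusted p = 0.997) and -0.071 against hypertonic (adjusted p = 0.862). Upper quartiles and library totals raised both above 0 along with all genes, and relative to the median of all genes ACSS2 stood at 0.018, 0.018 and 0.0046 against isotonic and at -0.052, -0.052 and -0.060 against hypertonic with TMM, upper quartiles and library totals. Subtracting the median takes out such a shift, so these values are nearly alike by construction. A span of 715 bases of ACSS2 overlaps GGT7 on the opposite strand.

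The 2 enzymes that build the chain were both lower in rescue. ACACA (chr17:37084988-37406818, minus strand), which makes malonyl-CoA, was at 234 and 182 CPM in isotonic 1 and 2, 184 and 229.9 CPM in hypertonic 1 and 2, and 81.4 and 82.7 CPM in rescue 1 and 2. Its highest library was 2.88 times its lowest, the widest range of the 10 members. It fell by 1.63 on the log2 scale against isotonic (3.09-fold, SE 0.129, 95% interval -1.97 to -1.29, adjusted p = 0.00887) and by 1.63 against hypertonic (adjusted p = 0.00893). FASN (chr17:82078333-82098332, minus strand), which makes palmitate, was at 429 and 471 CPM in isotonic, 500.0 and 429 CPM in hypertonic, and 299 and 273 CPM in rescue. Its rescue libraries were lowest too, by less. FASN fell by 0.95 on the log2 scale against isotonic (1.94-fold, SE 0.184, adjusted p = 0.0299) and by 1.01 against hypertonic (2.01-fold, adjusted p = 0.0264). C17orf78 overlaps 16723 bases of ACACA on the opposite strand, and no other row of the tables overlaps FASN.

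**Figure D1:**
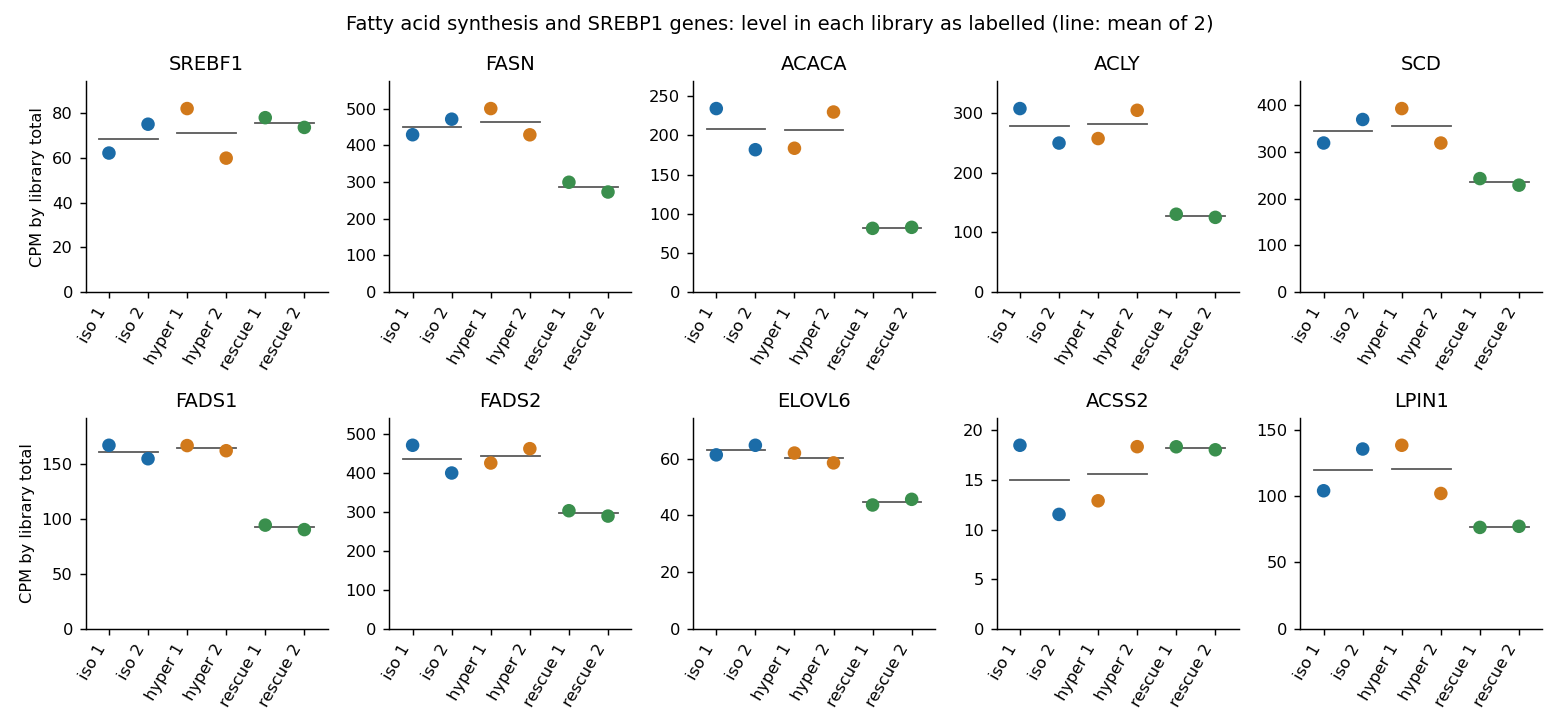
Level of each of the 10 genes in CPM by library total (vertical axis, from 0) in each of the 6 libraries as labelled; points are libraries and lines the means of 2. For 8 genes both rescue libraries lie below the other 4, as for ACACA at 81.4 and 82.7, while SREBF1 and ACSS2 show no such gap.

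The desaturases and the elongase followed the same order. SCD (chr10:100347124-100364834, plus strand) puts the first double bond into stearate and palmitate. It was at 319 and 369.5 CPM in isotonic, 393 and 319 CPM in hypertonic, and 243 and 229 CPM in rescue. SCD had rescue libraries below all others, but against isotonic, with a log2 fold change of -0.85 (SE 0.213, 95% interval -1.41 to -0.28), it missed the threshold of 0.05 by edgeR at an adjusted p of 0.0540, while DESeq2 and limma voom called it lower. Against hypertonic it fell by 0.90 (adjusted p = 0.0462).

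FADS1 and FADS2 encode the Δ5 and Δ6 desaturases of polyunsaturated fatty acids. FADS1 (chr11:61799625-61829318, minus strand) was at 167 and 154 CPM in isotonic, 166 and 162 CPM in hypertonic and 94.2 and 90.1 CPM in rescue. FADS2 (chr11:61792980-61867354, plus strand) was at 472 and 401 CPM in isotonic, 426 and 463 CPM in hypertonic, and 304 and 290.0 CPM in rescue. Against isotonic, FADS1 fell by 1.09 (2.14-fold, SE 0.112, adjusted p = 0.00998) and FADS2 by 0.85 (1.80-fold, SE 0.093, adjusted p = 0.0107). Against hypertonic, FADS1 fell by 1.14 (adjusted p = 0.00953) and FADS2 by 0.88 (adjusted p = 0.0101). The annotated span of FADS1 lies wholly within that of FADS2 on the opposite strand, over 29694 bases, and FEN1 shares 4265 bases with FADS2 on its strand. How strand was treated in counting is not stated, so reads of these neighbours may not be told apart.

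ELOVL6 (chr4:110045846-110199199, minus strand), the elongase that takes palmitate to stearate, was at 61.3 and 64.7 CPM in isotonic, 61.9 and 58.5 CPM in hypertonic, and 43.6 and 45.6 CPM in rescue. Its isotonic and hypertonic libraries lay close together. It fell by 0.80 against isotonic (1.74-fold, SE 0.148, adjusted p = 0.0263) and by 0.74 against hypertonic (1.67-fold, adjusted p = 0.0305). Its span encloses RN7SL275P, a copy of 7SL RNA on the opposite strand that has no row in the tables, and whether its reads count towards ELOVL6 is not known.

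LPIN1 (chr2:11677595-11827409, plus strand) encodes a phosphatidate phosphatase that leads fatty acids into triglycerides and phospholipids. It was at 104 and 135 CPM in isotonic 1 and 2, 138 and 102 CPM in hypertonic 1 and 2, and 76.4 and 77.2 CPM in rescue 1 and 2. Rescue was again lowest, but the libraries within isotonic and within hypertonic were farther apart than for ELOVL6. The log2 fold change was -0.95 against isotonic (SE 0.28, 95% interval -1.69 to -0.20, adjusted p = 0.0780) and -0.96 against hypertonic (adjusted p = 0.0752), and neither passed the test by edgeR. DESeq2 called LPIN1 lower in both comparisons, and limma voom in neither.

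**Figure D2:**
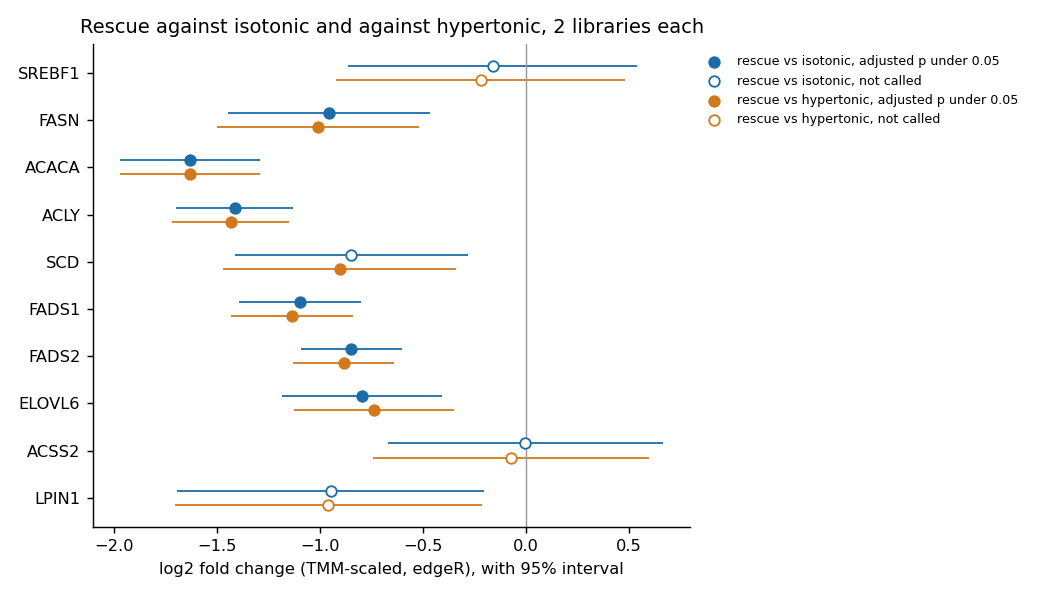
Log2 fold change of each gene in rescue against isotonic and against hypertonic (horizontal axis, TMM-scaled, edgeR), with 95% intervals; filled points passed the test at an adjusted p under 0.05. ACACA and ACLY lie farthest to the left, and the intervals of SREBF1 and ACSS2 span 0.

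Counted together, 6 members were lower and 0 higher in rescue than in isotonic at an adjusted p under 0.05. Of all 18208 genes tested, 13.5% were called lower and 9.61% higher. The members' median log2 fold change was -0.90, against -0.02 for all genes. In rescue against hypertonic, which shares the rescue libraries, 7 members were lower and 0 higher, SCD being the addition, where 13.8% of all genes were lower and 9.86% higher. There the medians were -0.93 for the members and -0.02 for all genes. In CPM by library total, both rescue libraries were lowest of the 6 in 8 members, against 21.8% of genes tested, and highest in 0, against 46.9%. Library totals raised all genes in rescue, by a median of 0.27 (log2) against isotonic. Both of these shares therefore depend on the scaling. The order of the 8 members places rescue below each of the other 4 libraries singly, so it is the same whichever of those 4 carries which label. As a sum, the 10 members took 2174 and 2114 CPM in isotonic, 2221 and 2146 CPM in hypertonic, and 1368 and 1304 CPM in rescue. In bulk RNA, fewer cells of a type and less RNA per cell cannot be told apart.

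Calls, of members and of all genes, rested on the libraries as grouped. Without isotonic 1, isotonic 2, rescue 1 or rescue 2, each left out alone, 0 members and 0 of all genes were called in rescue against isotonic. Without hypertonic 1, 7 members were lower, with 1535 genes higher and 1920 lower, and without hypertonic 2 also 7, with 1541 and 1919. In rescue against hypertonic, 0 members and 0 of all genes were called without hypertonic 1, hypertonic 2, rescue 1 or rescue 2. Without isotonic 1, 6 members were lower, with 1674 genes higher and 2017 lower, and without isotonic 2 also 6, with 1681 and 2008. With 1 library left in a group, that library is assumed to vary like the others. Over the 6 fits with 1 library left out, the log2 fold change of ACACA lay between -1.74 and -1.52 against isotonic, and that of ACLY between -1.49 and -1.34. FASN ranged from -1.09 to -0.81, and LPIN1, which had no call to lose, from -1.19 to -0.66. With the replicate number as a block, 0 members and 0 of all genes were called in either comparison.

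Scaling moved all fold changes together. The median of all genes in rescue against isotonic was -0.02 with TMM, 0.19 with upper-quartile scaling and 0.27 with library totals. Relative to that median, FASN stood at -0.93 in each of the 3 and ACACA at -1.61. Subtracting the median takes out such a shared shift, so this sameness is no test of scaling. Before that step FASN was at -0.95 with TMM, -0.74 with upper quartiles and -0.65 with library totals. Calls over all genes shifted from 1749 higher and 2453 lower with TMM to 2091 higher and 1404 lower with upper quartiles and to 2050 higher and 1095 lower with library totals. The 8 members that were lowest in rescue had negative log2 fold changes under each of these scalings. With library totals that sign was given beforehand, since these 8 were picked by that order. Against isotonic, FASN and ELOVL6 lost their calls with upper quartiles, which left 4 members lower, and ELOVL6 lost its call with library totals, which left 5. Against hypertonic, SCD and ELOVL6 lost theirs under both, which left 5.

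Levels set against each other within a library do not depend on scaling. FASN counts were 6.90 and 6.27 times those of SREBF1 in isotonic 1 and 2, 6.09 and 7.15 times in hypertonic 1 and 2, and 3.84 and 3.70 times in rescue 1 and 2. For SCD over SREBF1 the ratio was 5.13 and 4.92 in isotonic, 4.79 and 5.33 in hypertonic, and 3.12 and 3.11 in rescue. Rescue libraries were lowest in both ratios. The ratios are not per length, so only their differences between libraries can be read, and no test was made on them.

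**Figure D3:**
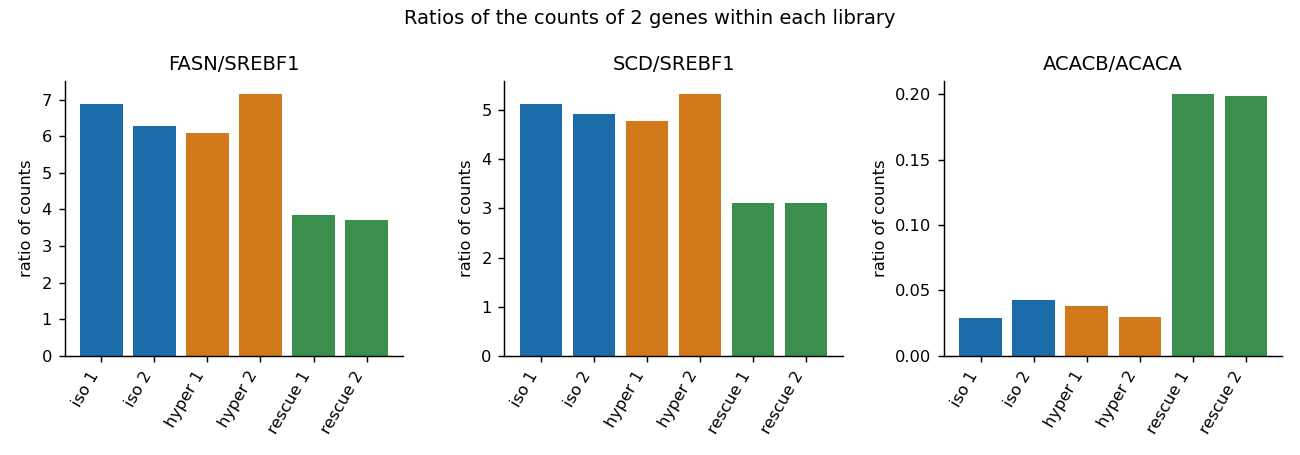
Ratio of the counts of 2 genes within each library as labelled (bars, vertical axes from 0, no unit): FASN over SREBF1, SCD over SREBF1 and ACACB over ACACA. The first 2 ratios are lowest in rescue, at 3.84 and 3.70 for FASN over SREBF1, and ACACB over ACACA is highest there, at 0.200 and 0.199.

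Hypertonic against isotonic, as labelled, gave no call for any member, with 0% of all 18208 genes called higher and 0% lower. An unadjusted edgeR p under 0.05 was reached by 52 genes, none of them a member. DESeq2 called 1 gene and limma voom called 0. Member log2 fold changes ran from -0.06 for ELOVL6 to 0.07 for ACSS2, with a median of 0.04 and adjusted p = 1. Intervals were wide: -0.64 to 0.76 for SREBF1 and -0.21 to 0.28 for FADS2. No member separated the groups. Of genes tested, 3.05% lay lower and 2.59% higher in both hypertonic libraries than in both isotonic ones. For so few members, none separating is near that share.

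Within 1 replicate number the same comparison gave larger values, of opposite sign between the numbers, for every member but FADS2. That gene was at 0.011 with number 1 and at 0.068 with number 2. These fits kept 1 isotonic, 1 hypertonic and both rescue libraries, and took the spread from the rescue pair. With number 1, the library labelled hypertonic 1 was higher than isotonic 1 for 4 members and lower for 2, where 31.6% of 18451 genes were called higher and 32.6% lower. LPIN1 was higher by 0.57 (log2, SE 0.083), SREBF1 by 0.56 (SE 0.086), SCD by 0.46 and FASN by 0.38. These 4 stood on the same side and ACSS2 and ACACA on the other, at shares near those of all genes. ACSS2 was lower, at -0.36 (SE 0.110), and so was ACACA, at -0.19. With number 2, hypertonic 2 was lower than isotonic 2 for 5 members and higher for 2, where 31% of 18440 genes were called lower and 32.9% higher. There LPIN1 was at -0.55, SREBF1 at -0.47, SCD at -0.35, ELOVL6 at -0.29 and FASN at -0.28. ACSS2 was higher by 0.53 and ACACA by 0.20. ACLY, FADS1 and FADS2 were called in neither, with values between -0.10 and 0.16.

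All 6 members called in both fits had opposite signs in them, as had 10665 of the 10673 genes called in both. The members' shares of calls lay near those of all genes. The difference between the numbers was not tested.

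**Figure D4:**
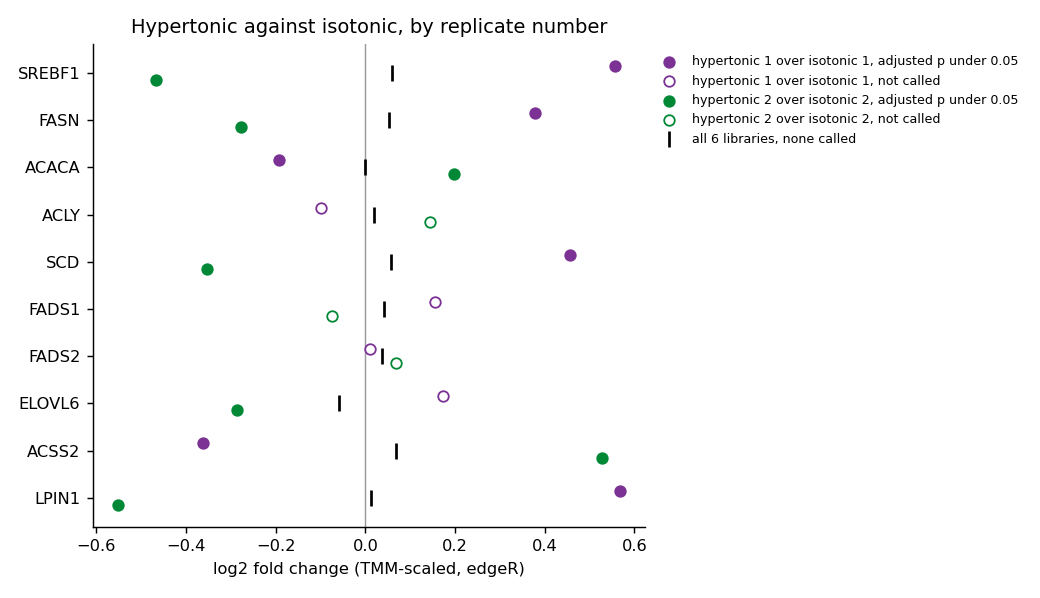
Log2 fold change of hypertonic over isotonic (horizontal axis, TMM-scaled, edgeR) for each of the 10 genes, with number 1 alone, with number 2 alone and with all 6 libraries; filled points passed the test. SREBF1 lies at 0.56 with number 1, at -0.47 with number 2 and near 0 with all libraries.

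The same fits gave 9 members lower in rescue than in isotonic with number 1, with SREBF1 at 0.065 the exception, where 38.6% of genes were called lower and 40.5% higher. With number 2, 9 were lower and ACSS2 was higher, where 40.1% of genes were called lower and 40.7% higher. Against hypertonic, 9 were lower with number 1, all but ACSS2, where 40.5% of genes were lower and 41% higher. SREBF1 and ACSS2 were thus the members whose calls varied. With number 2 also 9 were lower, all but SREBF1, where 38.6% were lower and 40.5% higher. SREBF1 against isotonic was thus 0.065 with number 1 and -0.36 with number 2, and ACSS2 was -0.25 and 0.29. The other 8 members were lower in each of the 4. They are the 8 picked as lowest in rescue, so that direction was largely fixed by the choice.

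The genes that control SREBP cleavage or share its promoters gave calls in both directions. Of 22 tested, 2 were higher and 2 lower in rescue than in isotonic, a share near or under the 9.61% and 13.5% of all genes, with a median log2 fold change of -0.19. SREBF2, which encodes the sister factor SREBP2 that favours cholesterol genes, was at 234 and 217 CPM in isotonic, 229 and 229.9 CPM in hypertonic, and 155 and 155 CPM in rescue. Unlike SREBF1 it was lower in rescue than in both groups, by 0.83 against isotonic (log2, 1.78-fold, SE 0.0994, adjusted p = 0.0116, edgeR). The difference between SREBF1 and SREBF2 was not tested. The NF-Y subunit genes NFYA, at 0.57 (adjusted p = 0.0432), and NFYC, at 0.49 (adjusted p = 0.0495), were higher, and 24843 bases of NFYA overlap OARD1 on the opposite strand.

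The sterol sensors themselves did not pass the test. INSIG1 was at 21.1 and 50.3 CPM in isotonic 1 and 2, 50.1 and 21.1 CPM in hypertonic 1 and 2, and 28.2 and 26.3 CPM in rescue. It followed the crossed split of the isotonic and hypertonic libraries more than any group, and its log2 fold change of rescue against isotonic was -0.72 (adjusted p = 0.483). SCAP was at -0.65 (adjusted p = 0.0848), INSIG2 at -0.70 (adjusted p = 0.297), the liver X receptor gene NR1H3 at 0.43 (adjusted p = 0.390) and the carbohydrate-response factor MLXIPL, at under 1 CPM, at 0.78 (adjusted p = 0.273).

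Of 13 genes of citrate, acetyl-CoA and NADPH supply, 4 were lower and 1 higher in rescue than in isotonic, with a median of -0.23. Among all genes, 13.5% were lower and 9.61% higher. ME1, the cytosolic malic enzyme that makes NADPH, was at 43.8 and 61.3 CPM in isotonic, 59.3 and 42.3 CPM in hypertonic, and 19.0 and 21.2 CPM in rescue, and fell by 1.70 (adjusted p = 0.0301). SLC25A1, the carrier that brings citrate out of mitochondria to ACLY, was at 52.1 and 52.7 CPM in isotonic, 55.6 and 54.3 CPM in hypertonic, and 35.2 and 31.8 CPM in rescue. It fell by 0.94 (1.92-fold, adjusted p = 0.0172). Citrate synthase (CS) fell by 0.90 (adjusted p = 0.0103). The calls against hypertonic were the same genes with PGD, of the pentose phosphate pathway, added at -0.50 (adjusted p = 0.0488).

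ACACB, the mitochondrial acetyl-CoA carboxylase whose malonyl-CoA restrains fatty acid oxidation, went the other way from ACACA. It was at 6.74 and 7.72 CPM in isotonic, 6.99 and 6.92 CPM in hypertonic, and 16.3 and 16.4 CPM in rescue, a log2 fold change of 0.88 (adjusted p = 0.0418). Its counts relative to those of ACACA were 0.0288 and 0.0425 in isotonic 1 and 2, 0.0381 and 0.0301 in hypertonic 1 and 2, and 0.200 and 0.199 in rescue 1 and 2, not per length. The rescue libraries stood above all others in that ratio.

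Of 14 other elongation and desaturation genes tested, 3 were lower and 1 higher in rescue than in isotonic, with a median of -0.32. The shares over all genes were 13.5% lower and 9.61% higher. ELOVL5, the elongase of polyunsaturated chains that works beside FADS1 and FADS2, fell by 1.12 (2.17-fold, adjusted p = 0.00905), HACD3, a dehydratase of the elongation cycle, by 0.77 (adjusted p = 0.0137) and SCD5, a second stearoyl-CoA desaturase, by 0.71 (adjusted p = 0.0350). FADS3 was at -0.60 (adjusted p = 0.234). The 1 higher gene, ELOVL2, had a mean under 5 CPM.

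Among 20 other genes of fatty acid activation and glycerolipid synthesis tested, 2 were lower and 0 higher, with a median of -0.08. Over all genes, 13.5% were lower and 9.61% higher. The 2 lower genes were ACSL4, which activates arachidonate, at -0.95 (adjusted p = 0.0174), and AGPAT1, an acyltransferase of the second step, at -0.69 (adjusted p = 0.0191). GPAM, the mitochondrial acyltransferase of the first step, was at 0.52 (adjusted p = 0.446). DGAT2, of the last step to triglyceride, was at 12.5 and 4.86 CPM in isotonic, 4.52 and 11.0 CPM in hypertonic, and 32.7 and 31.9 CPM in rescue. Its rescue libraries were highest, but at a log2 fold change of 1.63 it did not pass the test (adjusted p = 0.113).

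In the opposite pathway, mitochondrial fatty acid oxidation, calls leaned lower as well. Of 19 genes tested, 6 were lower and 1 higher in rescue than in isotonic, with a median of -0.07. Of all genes, 13.5% were lower and 9.61% higher. PPARA, a transcription factor of oxidation genes, fell by 1.77 (adjusted p = 0.0332) and ECHS1, an enoyl-CoA hydratase, by 0.97 (adjusted p = 0.0176). CPT1A, the entry step that malonyl-CoA inhibits, was at 1.86 and 1.42 CPM in isotonic, 1.11 and 2.05 CPM in hypertonic, and 5.89 and 6.60 CPM in rescue. It was higher by 1.64 (log2, adjusted p = 0.0337). No list differed from the members by a test, since none was made between lists.

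**Figure D5:**
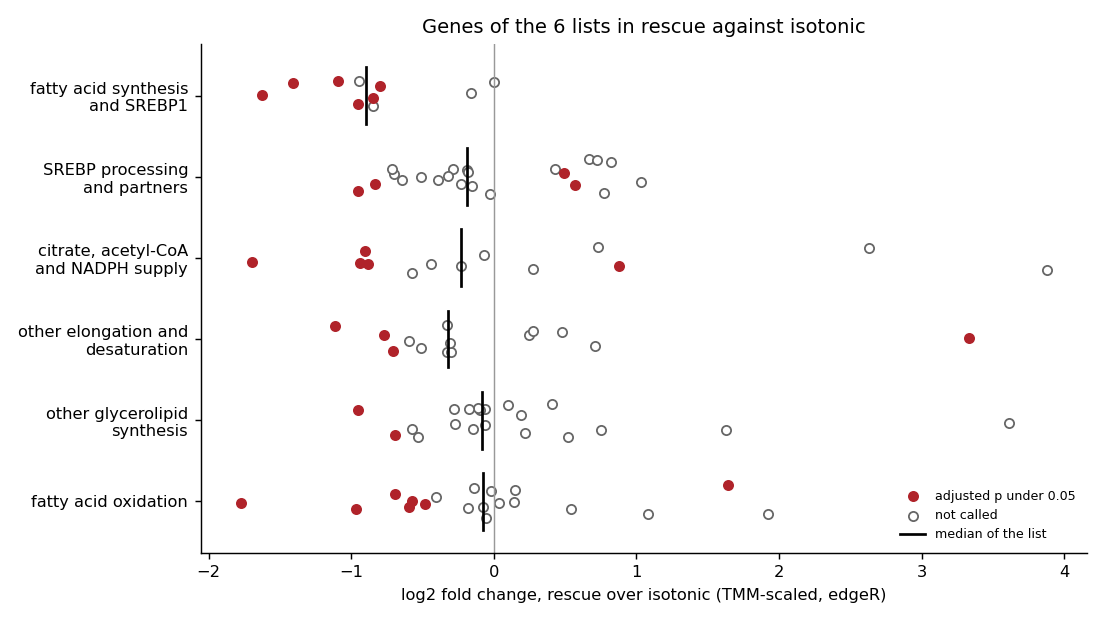
Log2 fold change of rescue over isotonic (horizontal axis, TMM-scaled, edgeR) for each gene of the 10 members and of 5 other lipid lists; filled points passed the test, and black bars are list medians. The members' median lies at -0.90 and those of the other lists between -0.32 and -0.07.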

How the data were processed

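Total RNA of 6 libraries was sequenced after removal of ribosomal RNA, per the labels' protocols. Raw gene counts were deposited, with no normalization, as 1 table for each library. The submitters' processing notes name bcl2fastq, TopHat2, Bowtie2 and bedtools and the build GRCh38 (hg38). Their versions, the gene annotation and the strand setting are not stated in the labels or notes. Each table held 19940 rows with 19907 names.

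The members and lists were chosen with earlier results of these data known. CPM were computed from library totals. edgeR 4.0.16 (R 4.3.3; filterByExpr, TMM, robust quasi-likelihood, Benjamini-Hochberg over 18208 genes, two-sided threshold 0.05) was fitted to all 6 libraries with a mean per group, leaving 3 residual degrees of freedom and a biological coefficient of variation of 38.4%. That coefficient takes in the crossed split within isotonic and hypertonic. The SD of the log2 ratio was 0.962 and 0.952 there, but 0.166 within rescue. The fit was run on simulated data, where recovery was required only at a far smaller spread than in these data. A pass at that spread does not show power at the spread seen here. Alternatives were DESeq2 1.42.0, limma 3.58.1 voom, 3 other scalings, no filter, a replicate block, single numbers and each library left out. At totals of 90196278 to 105991428 counts, 3 counts are 0.0283 to 0.0333 CPM, for counting error only.

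Replicate numbers did not pair the samples: deviations of same-numbered isotonic and hypertonic libraries correlated at -0.961 across genes. Named genes were the 10 members, up to 4 called genes per list by size of change (averaging 5 CPM or more), and fixed regulators and enzymes (SREBF2, SCAP, INSIG1, INSIG2, MLXIPL, NR1H3, SLC25A1, ME1, ACACB, CPT1A, FADS3, SCD5, GPAM and DGAT2), with NFAT5, SLC38A2 and DCP1A as label checks. Some genes that the rule would name are not reported here. Locations come from GENCODE on GRCh38 and sequences from RefSeq.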

Additional observations from a re-analysis of the deposited data

How the results depend on the processing

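In rescue against isotonic and against hypertonic, the 8 members lowest in rescue kept negative log2 fold changes under every alternative run. They were picked as lowest in both rescue libraries, so this sign was largely fixed by the choice and is no test. Calls did not hold throughout. DESeq2 called 8 members lower in each comparison and limma voom 7. The replicate block left 0 members and 0 genes called in both comparisons. Fits leaving out each library in turn gave 0 to 7 members lower in rescue against isotonic and 0 to 6 against hypertonic, with 0 to 1541 genes higher and 0 to 1920 lower in the first and 0 to 1681 higher and 0 to 2017 lower in the second. DESeq2 called 3286 genes higher and 3712 lower in rescue against isotonic, and 3341 higher against hypertonic. Upper-quartile scaling called 1404 and 1448 lower in the 2 comparisons, and library totals 1095 and 1098. Number 1 alone called 7476 higher and 7115 lower against isotonic and 7561 and 7466 against hypertonic, and number 2 alone 7496 and 7402, with 1 member (ACSS2) higher, and 7475 and 7111. The cause was not tested; the fits with single numbers and with a library left out hold fewer libraries.

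Upper quartiles and library totals raise all genes alike (median 0.19 and 0.27 in rescue against isotonic), so values above 0 under them are no change relative to other genes. SREBF1 came to 0.054 and 0.14 with them in rescue against isotonic and to 0.065 with number 1 alone, and against hypertonic to 0.095 with library totals and 0.11 with number 2 alone. With a library left out it ran from -0.36 to 0.064 against isotonic and from -0.49 to 0.11 against hypertonic. ACSS2, near 0 in rescue against isotonic, came to 0.019 with RLE factors, 0.21 with upper quartiles, 0.28 with library totals, 0.0037 with the replicate block, 0.29 with number 2 alone, 0.017 with DESeq2 and 0.0069 with limma voom, and to -0.25 to 0.28 with a library left out. Against hypertonic it came to 0.14 with upper quartiles, 0.22 with library totals and 0.12 with number 1 alone, and to -0.24 to 0.12 with a library left out.

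In hypertonic against isotonic, number 1 alone gave 4 members higher and 2 lower (5828 and 6013 genes), and number 2 alone 2 higher and 5 lower (6060 and 5716 genes). DESeq2 called 1 gene lower. With number 2 alone SREBF1 came to -0.47, FASN to -0.28, ACACA to 0.20, SCD to -0.35, FADS1 to -0.075 and LPIN1 to -0.55. With number 1 alone ACLY came to -0.10, ELOVL6 to 0.17 and ACSS2 to -0.36. ACACA came to 0.0007 with upper quartiles. With each library left out in turn, the ranges were SREBF1 -0.27 to 0.33, FASN -0.14 to 0.23, ACACA -0.10 to 0.11, ACLY -0.052 to 0.10, SCD -0.18 to 0.27, FADS1 -0.055 to 0.14, FADS2 -0.0042 to 0.081, ELOVL6 -0.18 to 0.061, ACSS2 -0.17 to 0.36 and LPIN1 -0.31 to 0.30, with no call. A block of crossed pairs, chosen after seeing the data, called 0 members and 6 genes higher and 15 lower, with ACACA at 0.001.

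With 2 libraries a group and 3 residual degrees of freedom, small changes cannot pass the test, and the SD of the log2 ratio within isotonic (0.962) and hypertonic (0.952) was far above that within rescue (0.166). Depth was ample for the members: the lowest, ACSS2 at 11.5 CPM, lay well above the 0.0333 CPM that 3 counts give.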
